A study of Mus musculus with 20 samples.

Results

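The 28 genes described here encode the enzymes that build cholesterol from acetyl-CoA, the sensors that set how much of them is made, and a small number of sterol-handling proteins that the same transcription factor, SREBP2, controls. They were taken by gene symbol from the table of estimated read counts, which lists 32400 mouse genes, and all 28 passed the filter on low counts that left 13667 genes to be tested. The samples were livers of C57BL/6NTac mice, a laboratory substrain, in 3 groups. In the HFHF Flcn gRNA group (n = 8), mice fed a diet rich in fat and fructose (HFHF diet) had received a guide RNA against Flcn carried by the viral vector AAV8. Flcn encodes folliculin, a regulator of nutrient signalling at the lysosome. In the HFHF control group (n = 7), mice on the same diet had received PBS, the vehicle. In the chow control group (n = 5), mice were untreated and ate standard chow. The gRNA group therefore differed from the HFHF control group by the vector as well as by the guide, and the HFHF control group differed from the chow group by the PBS injection as well as by the diet, so these cannot be told apart. The sources used here name neither the nuclease nor the promoter that drives the guide, and they give no age or sex of the mice and no length of the diet.

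Cholesterol is made in the cytosol and endoplasmic reticulum, and the liver is a main site of its synthesis. Acetyl units are joined into mevalonate, mevalonate is turned into isoprenoid units, these are joined into squalene, and squalene is closed into lanosterol, which a series of membrane enzymes trims to cholesterol. SREBP2, encoded by Srebf2, is made as a membrane protein bound to its escort Scap. When sterols are scarce, Scap carries SREBP2 to the Golgi, where it is cut and freed to enter the nucleus and raise transcription of these enzymes. When sterols are plentiful, the Insig proteins hold Scap in the endoplasmic reticulum and the same genes are transcribed less.

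SREBP2 binds short sterol regulatory elements, usually beside a CCAAT box, which binds NF-Y, and a GC box, which binds Sp1-type factors. The promoter table, from RefSeq on the mouse build GRCm38.p6, holds 250 bases before and 50 after the transcription start and matched 24 of the 28 genes by symbol, leaving out Fdft1, Fdps, Sqle and Stard4. A gene with several starts counts where any of its windows holds a motif. A CCAAT box on either strand (CCAAT or ATTGG) lay in 21 of the 24 windows (87.5%), against 43.0% of the 10480 windows of tested genes and 41.1% of all 27025 windows. At least 2 such boxes lay in 13 of the 24 windows (54.2%), against 16.6% of the windows of tested genes. Of the 24, 18 had a CCAAT box in the last 100 bases before the start (75.0%), against 26.5% of the tested genes' windows. A GC box (GGGCGG, either strand) was in 21 of the 24 (87.5%), against 65.3% of the tested genes' windows. In the last 100 bases before the start it was in 14 of the 24 (58.3%), near the 50.4% of the tested genes' windows. At least 2 GC boxes lay in 14 of the 24 windows (58.3%), against 40.7%. The letters TCACNCCAC, 1 form of the sterol regulatory element core, lay in the window of Hmgcs1 alone among the 24 (4.17%, against 1.42% of the tested genes' windows). None of the 3 letter strings contains another, each was searched separately, and a match is a description of the window and not of binding. The 6 windows printed here show the 200 bases before the start of the gene whose window holds that core (Hmgcs1, chr13:119690151-119690350, plus strand), 3 genes of the mevalonate steps (Mvk, chr5:114444069-114444268, plus strand; Mvd, chr8:122443423-122443622, minus strand; Pmvk, chr3:89454341-89454540, plus strand), and 2 regulators that differ from them in the results (Insig2, chr1:121332590-121332789, minus strand; Scap, chr9:110333088-110333287, plus strand). Each is written from 5′ to 3′ on its gene's strand, and capitals mark CCAAT or ATTGG and, in Hmgcs1, the letters of TCACNCCAC.
Hmgcs1: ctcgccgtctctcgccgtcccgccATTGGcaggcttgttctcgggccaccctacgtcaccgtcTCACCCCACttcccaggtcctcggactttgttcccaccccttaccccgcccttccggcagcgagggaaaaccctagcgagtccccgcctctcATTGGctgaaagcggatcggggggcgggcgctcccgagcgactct
Mvk: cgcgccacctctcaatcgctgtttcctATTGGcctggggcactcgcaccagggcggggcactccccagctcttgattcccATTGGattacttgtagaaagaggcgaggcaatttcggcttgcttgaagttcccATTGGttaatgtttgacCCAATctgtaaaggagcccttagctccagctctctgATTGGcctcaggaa
Mvd: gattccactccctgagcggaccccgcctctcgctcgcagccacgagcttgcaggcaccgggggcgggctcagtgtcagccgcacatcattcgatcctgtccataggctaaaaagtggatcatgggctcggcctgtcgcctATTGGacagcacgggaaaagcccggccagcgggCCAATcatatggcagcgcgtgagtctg
Pmvk: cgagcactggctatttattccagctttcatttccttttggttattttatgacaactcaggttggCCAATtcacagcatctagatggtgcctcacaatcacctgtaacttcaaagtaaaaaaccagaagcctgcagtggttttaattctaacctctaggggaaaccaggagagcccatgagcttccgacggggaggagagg
Insig2: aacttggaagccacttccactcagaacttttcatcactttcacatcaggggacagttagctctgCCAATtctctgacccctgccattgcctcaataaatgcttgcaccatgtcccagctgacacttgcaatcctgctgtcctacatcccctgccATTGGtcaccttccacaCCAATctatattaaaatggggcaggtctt
Scap: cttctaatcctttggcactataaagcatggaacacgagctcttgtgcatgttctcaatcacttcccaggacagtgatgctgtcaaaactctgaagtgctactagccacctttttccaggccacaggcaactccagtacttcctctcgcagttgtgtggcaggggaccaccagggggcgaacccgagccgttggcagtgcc
The Mvk window holds 5 CCAAT boxes in this stretch and the Scap window holds none. The 3 genes with no CCAAT box in the whole window were Aacs, Acat2 and Scap.

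Total estimated counts per library were 13974379 to 19586576 in the gRNA group, 15244760 to 18194089 in the HFHF control group and 14131976 to 16285324 in the chow group. Flcn itself ranged over 14.1 to 21.97 CPM (counts scaled to library size) in the gRNA livers, 17.8 to 26.4 CPM in the HFHF controls and 17.3 to 32.4 CPM in the chow controls, and the groups overlapped. A count over the whole gene does not read the edited site, so it does not check the labels. Hepatocyte markers were detected in all libraries, with albumin, the main plasma protein made by hepatocytes, at 2.81% to 5.97% of a library's counts. Mitochondrially encoded transcripts took 13.9% to 26.5% of counts in the gRNA group, 12.5% to 15.3% in the HFHF control group and 12.4% to 13.6% in the chow group. The highest of these shares and the lowest albumin share both belonged to gRNA replicate 8, whose title also differs from the others in its second field.

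On the HFHF diet the pathway fell almost throughout. In the HFHF controls, 26 of the 28 genes were lower than in the chow controls and 0 were higher at an adjusted p under 0.05 (edgeR's quasi-likelihood test, Benjamini-Hochberg adjustment over the 13667 genes). Over all tested genes, 57% were called in this comparison, 28.1% higher and 28.9% lower. Upward calls were thus 49.4% of all calls, and 60.7% with upper-quartile in place of TMM scaling of the libraries. The median log2 fold change of the 28 was -1.76, and that of all tested genes was -0.01. Of the 28, 19 were at least 2-fold lower, against 4.23% of all tested genes, and 11 were at least 4-fold lower, against 1.04%; 0 were at least 2-fold higher, against 13.1%. For 25 genes every HFHF control library lay below every chow library, a pattern shown by 18.1% of all tested genes, while 18.8% showed the opposite one. The 2 genes that did not pass were Aacs and Insig2. In bulk tissue, a smaller share of the cells that make a transcript and less of it per cell cannot be told apart.

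Markers of several cell types also moved with the diet. The share called was 80% of hepatocyte, 90% of macrophage, 100% of stellate cell and fibroblast and 75% of measured cholangiocyte markers. For lymphocyte and endothelial markers it was 62.5% and 50%, near the 57% of all tested genes. Of 10 hepatocyte markers, 8 were lower and 0 higher in the HFHF controls, with a median log2 fold change of -0.43, and their summed level was 48300 to 71400 CPM in the HFHF controls, against 80500 to 102000 CPM in the chow controls. Of 10 macrophage markers, 9 were higher, and they summed to 289 to 630 CPM in the HFHF controls, against 104 to 192 CPM in the chow controls. All 10 stellate cell and fibroblast markers were higher, with sums of 683 to 985 CPM in the HFHF controls, against 203 to 252 CPM in the chow controls. Of 6 cholangiocyte markers, 3 were higher and Krt7 and Cftr were below the filter on low counts. Sums over the other 4 were 92.7 to 225 CPM in the HFHF controls, against 24.1 to 35.4 CPM in the chow controls. Most of these sums was 1 gene, Spp1, at a mean of 158 CPM in the HFHF controls and 19.9 CPM in the chow controls. Sox9 did not pass, and Epcam and Krt19 averaged only 1.72 and 1.11 CPM in the HFHF controls, against 0.718 and 0.390 CPM in the chow controls. Of 8 lymphocyte markers, 4 were higher and 1 lower, with sums of 7.52 to 16.3 CPM in the HFHF controls, against 5.5 to 7.11 CPM in the chow controls. Of 8 endothelial markers, 2 were higher and 2 lower, with sums of 156 to 218 CPM in the HFHF controls, against 164 to 197 CPM in the chow controls. The part of these shifts in the fall of the sterol genes was not tested.

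The Flcn guide was followed by small changes in both directions and no common shift of the pathway. Between the gRNA and HFHF control livers, 7 of the 28 genes were higher, 4 were lower and 17 did not pass, at a median log2 fold change of 0.07, against 0.01 over all tested genes. This comparison called 38.6% of all tested genes, 19.6% higher and 19% lower, so the share of the 28 that was called (39.3%) was near the background. Upward calls were 50.7% of all calls, and 37.8% with upper-quartile scaling, under which 3 of the 28 genes were higher and 5 lower. The 7 that rose were Scap, Acss2, Aacs, Ebp, Tm7sf2, Tmem97 and Msmo1, and the 4 that fell were Mvk, Cyp51, Lbr and Pmvk. No gene of the 28 reached a 2-fold change, which 2.05% of all tested genes reached upward and 5.7% downward. Scap was the 1 gene of the 28 with every gRNA library above every HFHF control library, a pattern of 5.04% of all tested genes; 0 of the 28 had every gRNA library below, against 6.01%. The calls of Scap, Ebp, Acss2, Cyp51 and Mvk held under all 25 alternative settings tried, whereas that of Aacs was lost in 19 of them, Tm7sf2 in 11, Pmvk and Tmem97 in 7 each, Lbr in 3 and Msmo1 in 1. Without gRNA replicate 8, 5 genes were higher and 3 lower, and without gRNA replicate 6, 4 genes were higher and 2 lower. Without HFHF control replicate 1, 4 were higher, and without HFHF control replicate 2, 2 were lower.

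Markers of several cell types moved here too. For hepatocyte markers the share called was 40%, near the 38.6% of all tested genes, and for endothelial markers it was 50%. The share was 60% of macrophage, 80% of stellate cell and fibroblast and 100% of measured cholangiocyte and of lymphocyte markers. In the gRNA livers, 4 of 10 hepatocyte markers were higher and 0 lower, with sums of 56300 to 89300 CPM, against 48300 to 71400 CPM in the HFHF controls. Stellate cell and fibroblast markers were lower for 8 of 10, with sums of 261 to 411 CPM in the gRNA livers, against 683 to 985 CPM in the HFHF controls. All 4 measured cholangiocyte markers were lower, with sums of 29.9 to 80.1 CPM in the gRNA livers, against 92.7 to 225 CPM in the HFHF controls. Most of these sums was again Spp1, at a mean of 40.0 CPM in the gRNA livers and 158 CPM in the HFHF controls. Of 10 macrophage markers, 5 were lower and 1 higher, with sums of 254 to 542 CPM in the gRNA livers, against 289 to 630 CPM in the HFHF controls. Of 8 endothelial markers, 3 were higher and 1 lower, with sums of 155 to 268 CPM in the gRNA livers, against 156 to 218 CPM in the HFHF controls. Of 8 lymphocyte markers, 4 were higher and 4 lower, with sums of 7.46 to 17.3 CPM in the gRNA livers, against 7.52 to 16.3 CPM in the HFHF controls. The part of these shifts, or of the higher mitochondrial share, in the changes of the sterol genes was not tested.

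The gRNA livers were far below the chow livers for most of the pathway. Of the 28 genes, 25 were lower and 1, Aacs, was higher in the gRNA livers than in the chow controls, and Insig2 and Tmem97 did not pass. Over all tested genes, 42.6% were called, 20.9% higher and 21.7% lower. At least a 2-fold fall was seen for 18 genes, against 2.66% of all tested genes, and at least a 4-fold fall for 10, against 0.534%; 0 were at least 2-fold higher, against 6.09%. In 25 genes every gRNA library lay below every chow library, against 8.98% of all tested genes, and in 0 did every gRNA library lie above, against 9.01%. The median of the 28 was -1.76 on the log2 scale, against 0.003 over all tested genes. The comparisons share groups of libraries with each other, so they are not independent of each other.

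**Figure D1:**
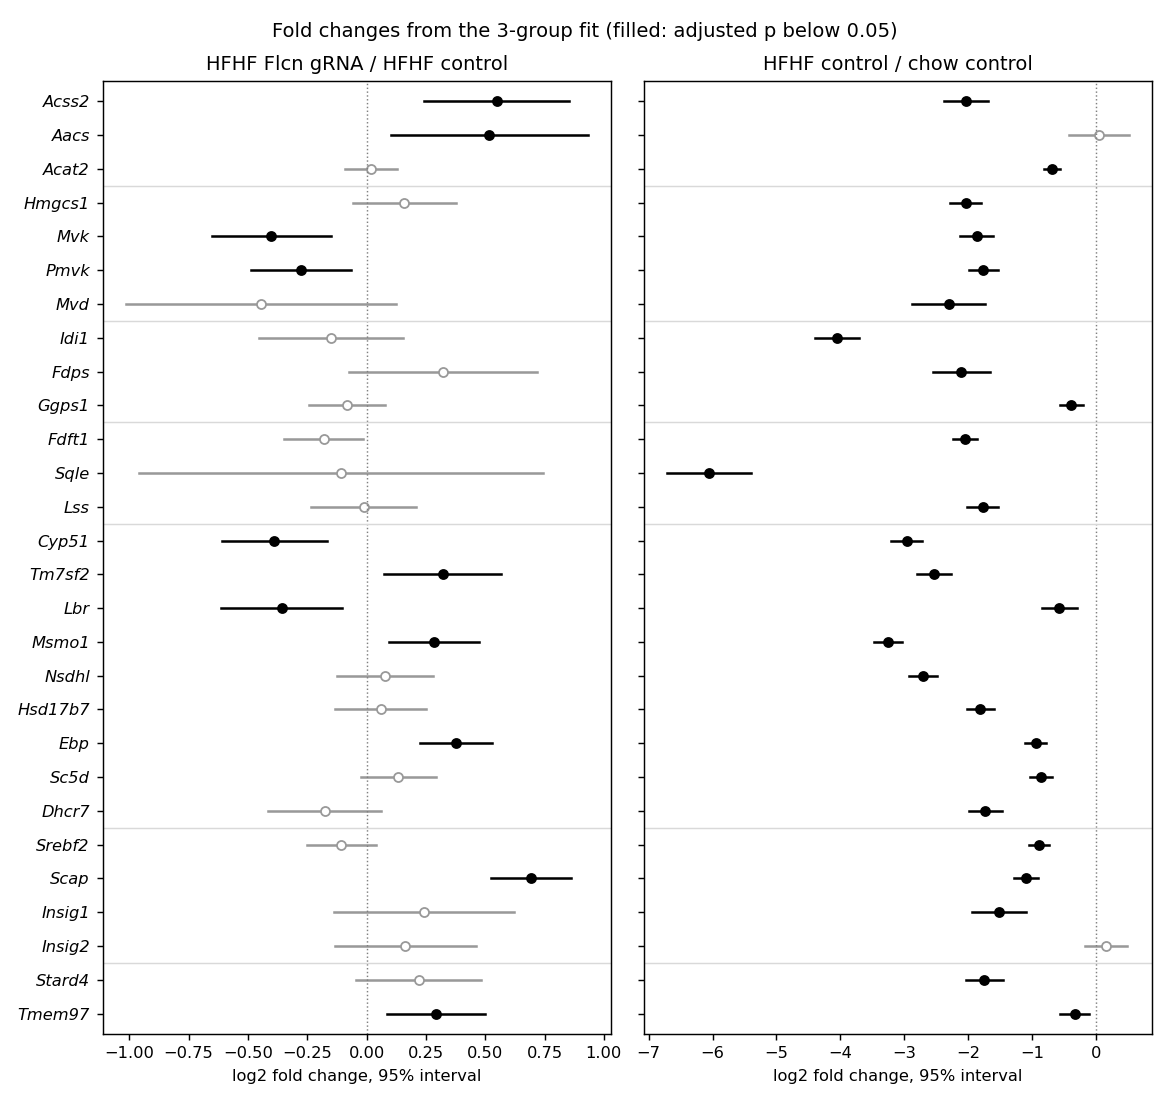
Log2 fold changes of the 28 genes in pathway order, with 95% intervals, for HFHF Flcn gRNA over HFHF control (left) and HFHF control over chow control (right); filled points have an adjusted p below 0.05, and the horizontal scales differ between panels. On the left 7 filled points lie right of zero and 4 left of it, between -0.40 and 0.69, and on the right all 26 filled points lie left of zero, down to -6.06 for Sqle.

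The first steps supply activated acetyl and acetoacetyl units. Acss2, the cytosolic enzyme that makes acetyl-CoA from acetate, had 55.3 to 90.1 CPM (median 78.8) in the gRNA livers, 43.2 to 65.2 CPM (median 51.7) in the HFHF controls, and 278, 231, 260, 148 and 145 CPM in the chow controls. Both HFHF groups lay below the lowest chow liver and overlapped each other. Acss2 was lower in the HFHF controls than in the chow controls (log2 fold change -2.03, SE 0.16, adjusted p = 5.2e-09, edgeR) and higher in the gRNA livers than in the HFHF controls (0.55, SE 0.15, adjusted p = 0.00564), and it remained below chow in the gRNA livers (-1.48, SE 0.16). Acat2, the cytosolic thiolase that joins 2 acetyl units, averaged 68.3 ± 4.07 CPM in the gRNA livers, 67.5 ± 3.69 CPM in the HFHF controls and 109 ± 8.24 CPM in the chow controls (here and below ± is the SD, with n = 8, 7 and 5). Its fall on the diet was -0.69 (SE 0.06), and the guide contrast gave 0.02 with a 95% interval of -0.09 to 0.13, the narrowest of the 28 intervals. Aacs, which activates acetoacetate in the cytosol, went its own way: it had 42.2 to 78.7 CPM (median 55.7) in the gRNA livers, 24.9 to 63.9 CPM (median 35.0) in the HFHF controls, and 33.5, 32.5, 33.1, 34.1 and 57.3 CPM in the chow controls. The 3 groups overlapped. Aacs was called higher in the gRNA livers than in the HFHF controls (0.52, SE 0.20, adjusted p = 0.0459) and than in the chow controls (0.57, SE 0.22, adjusted p = 0.0454), both close to the threshold and lost in 19 and 11 of 25 alternative settings, and did not pass between the HFHF and chow controls (0.05, SE 0.23, adjusted p = 0.853).

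The 4 mevalonate-step genes all fell on the diet, by -1.76 to -2.30 on the log2 scale. Hmgcs1, which makes HMG-CoA, averaged 168 ± 26.8 CPM in the gRNA livers, 151 ± 15.2 CPM in the HFHF controls and 619 ± 113 CPM in the chow controls. Its log2 fold change was -2.04 (SE 0.12, adjusted p = 1.55e-11) for HFHF control over chow and 0.16 (SE 0.10, adjusted p = 0.239) for gRNA over HFHF control. The kinases that phosphorylate mevalonate, Mvk and then Pmvk, fell further in the gRNA livers. Mvk had 2.39 to 3.52 CPM (median 2.94) in the gRNA livers, 3.17 to 4.84 CPM (median 3.70) in the HFHF controls, and 13.9, 10.8, 15.5, 17.2 and 13.7 CPM in the chow controls. Most gRNA libraries lay under the lowest HFHF control, and both groups lay far under chow. Mvk changed by -1.86 (SE 0.12) on the diet and by -0.40 (SE 0.12, adjusted p = 0.0115, edgeR) with the guide, and stood at 20.8% of the chow mean in the gRNA livers and 27.5% in the HFHF controls. Pmvk had 7.35 to 11.5 CPM (median 9.19) in the gRNA livers, 9.08 to 15.1 CPM (median 11.1) in the HFHF controls, and 44.9, 37.2, 41.1, 34.3 and 34.8 CPM in the chow controls. It changed by -1.76 (SE 0.11) on the diet and by -0.28 (SE 0.10, edgeR adjusted p = 0.0364) with the guide, with overlapping HFHF groups. The guide call of Pmvk was lost in 7 of 25 alternative settings, whereas that of Mvk held in all. Without HFHF control replicate 2, the guide change of Pmvk was -0.20 (edgeR adjusted p = 0.108). Mvd, the decarboxylase that ends this stage, averaged 2.32 ± 0.784 CPM in the gRNA livers, 3.17 ± 1.49 CPM in the HFHF controls and 15.6 ± 4.70 CPM in the chow controls. Its diet change was -2.30 (SE 0.27), and its guide change of -0.45 had an interval of -1.02 to 0.12 and did not pass (adjusted p = 0.21). Without HFHF control replicate 2, which had the highest Mvd of its group, the guide change was -0.20 (adjusted p = 0.564).

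Among the isoprenoid steps the fall was uneven. Idi1, the isomerase that makes the reactive isoprenoid unit, had 12.7 to 26.6 CPM (median 16.9) in the gRNA livers, 16.1 to 24.4 CPM (median 17.7) in the HFHF controls, and 284, 236, 271, 395 and 364 CPM in the chow controls. Every HFHF library lay far below every chow library. Idi1 was 16.5-fold lower in the HFHF controls than in the chow controls (-4.05 on the log2 scale, SE 0.17, edgeR adjusted p = 3.72e-13), while with the guide it changed by -0.15 (SE 0.15, adjusted p = 0.45). Fdps, which makes farnesyl diphosphate, averaged 75.0 ± 26.7 CPM in the gRNA livers, 59.9 ± 12.6 CPM in the HFHF controls and 257 ± 33.6 CPM in the chow controls. Its diet change was -2.10 (SE 0.21) and its guide change 0.32 (SE 0.19, adjusted p = 0.191). Ggps1, which makes geranylgeranyl diphosphate for protein prenylation and so leads away from sterols, averaged 8.70 ± 0.702 CPM in the gRNA livers, 9.19 ± 0.892 CPM in the HFHF controls and 12.0 ± 1.25 CPM in the chow controls. It fell by only 0.38 (SE 0.09, adjusted p = 0.000727) on the diet, while Idi1 and Fdps beside it changed by -4.05 and -2.10.

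The squalene steps held the steepest fall of the pathway. Sqle (ENSMUSG00000022351, chr15:59315077-59331192, plus strand, GRCm38), squalene epoxidase, which adds the oxygen that starts ring closure and is a rate-limiting step of the pathway, had 0.469 to 2.04 CPM (median 0.960) in the gRNA livers, 0.362 to 3.17 CPM (median 0.958) in the HFHF controls, and 70.5, 56.5, 68.6, 90.8 and 92.6 CPM in the chow controls. In whole libraries this was 136 counts over the 8 gRNA livers and 145 over the 7 HFHF controls, against 5129 over the 5 chow controls. Sqle was 66.6-fold lower in the HFHF controls than in the chow controls (log2 fold change -6.06, SE 0.31, adjusted p = 5.31e-11, edgeR), the 5th steepest fall of the 13667 genes, and 71.7-fold lower in the gRNA livers than in the chow controls (-6.16, SE 0.30), the steepest of all. Between the gRNA and HFHF control livers it changed by -0.11 with an interval of -0.96 to 0.74, the widest of the 28, so a moderate change of Sqle with the guide was not detectable at these counts. Fdft1, squalene synthase, averaged 31.7 ± 2.49 CPM in the gRNA livers, 35.9 ± 4.45 CPM in the HFHF controls and 148 ± 20.3 CPM in the chow controls, a diet change of -2.04 (SE 0.09) and a guide change of -0.18 (SE 0.08, adjusted p = 0.0812). Lss, which closes the ring to lanosterol, averaged 17.01 ± 2.69 CPM in the gRNA livers, 17.1 ± 2.74 CPM in the HFHF controls and 58.4 ± 7.14 CPM in the chow controls. Lss changed by -1.77 (SE 0.12) on the diet and by -0.01 (SE 0.11) with the guide.

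**Figure D2:**
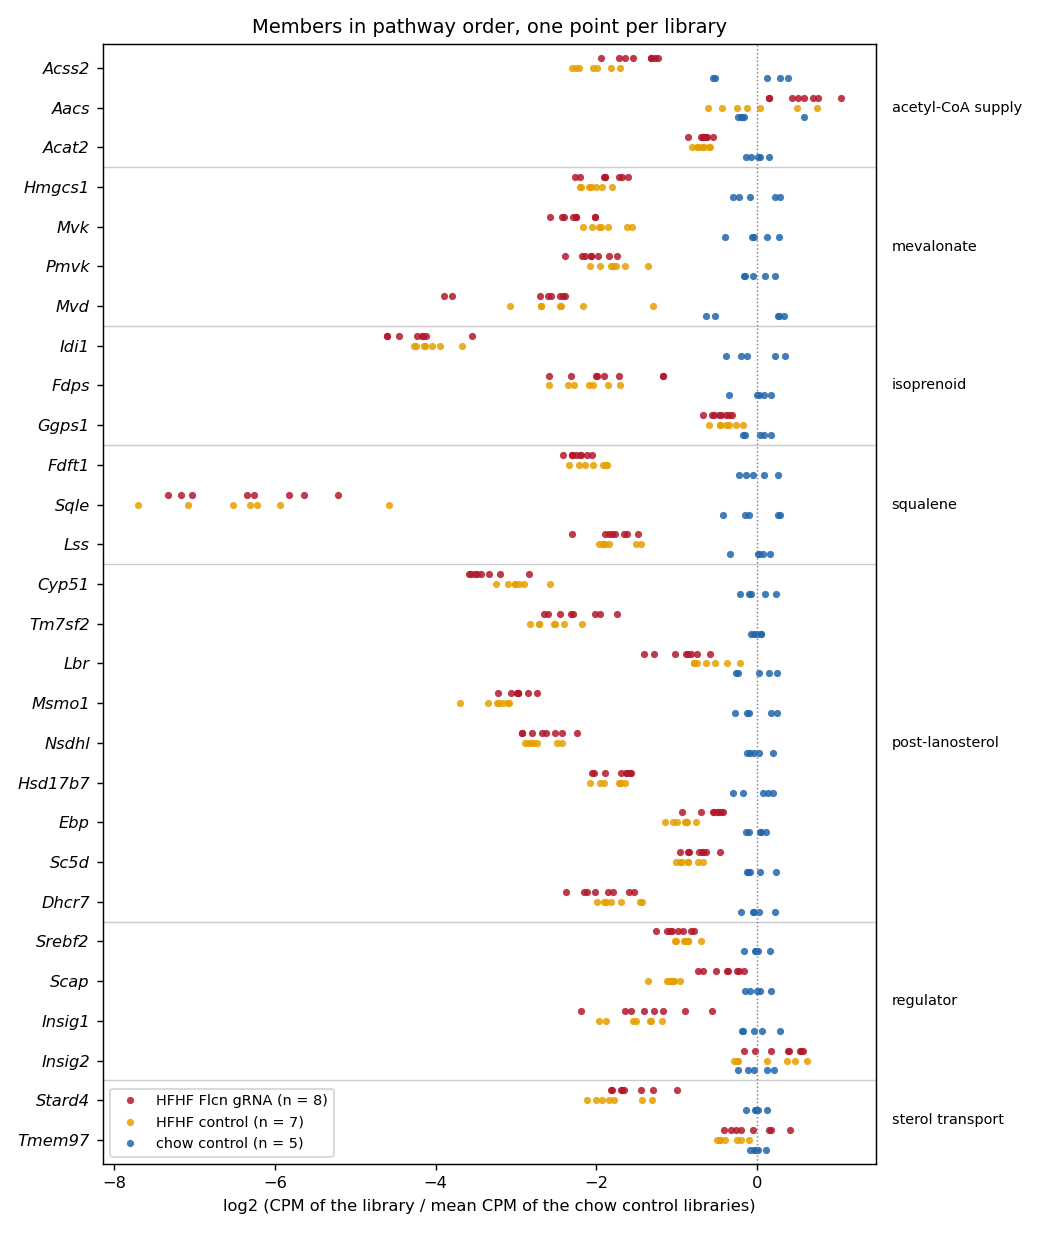
Level of the 28 genes in every library as the log2 ratio of its CPM to the mean CPM of the chow controls, with the genes grouped by pathway step and HFHF Flcn gRNA above HFHF control above chow control within each gene. The 2 HFHF groups overlap for 27 genes, while chow libraries stand to the right of every HFHF control library for 25 genes, by the widest gap for Sqle.

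The 9 genes that convert lanosterol to cholesterol all fell on the diet, by -0.57 to -3.25, and split in the guide contrast into 3 higher, 2 lower and 4 that did not pass. Cyp51, lanosterol demethylase, had 16.6 to 27.7 CPM (median 18.1) in the gRNA livers, 20.9 to 33.5 CPM (median 24.6) in the HFHF controls, and 189, 173, 187, 234 and 214 CPM in the chow controls. Its diet change was -2.96 (SE 0.12) and its guide change -0.39 (SE 0.11, adjusted p = 0.00651, edgeR), with 9.81% of the chow mean left in the gRNA livers and 12.8% in the HFHF controls. Msmo1, which oxidises the methyl groups next removed, had 27.3 to 38.0 CPM (median 32.2) in the gRNA livers, 19.6 to 30.0 CPM (median 27.4) in the HFHF controls, and 233, 210, 302, 287 and 237 CPM in the chow controls. It thus rose slightly with the guide (0.28, SE 0.09, adjusted p = 0.0175) while Cyp51 fell, after a diet change of -3.25 (SE 0.10). Nsdhl and Hsd17b7, the dehydrogenase and reductase that act with Msmo1, changed by -2.70 (SE 0.11) and -1.80 (SE 0.10) on the diet and by 0.08 (SE 0.10) and 0.06 (SE 0.09) with the guide. Nsdhl averaged 13.2 ± 2.27 CPM in the gRNA livers, 12.5 ± 1.63 CPM in the HFHF controls and 81.2 ± 7.19 CPM in the chow controls. Hsd17b7 averaged 21.98 ± 2.95 CPM in the gRNA livers, 21.1 ± 2.31 CPM in the HFHF controls and 73.6 ± 10.4 CPM in the chow controls.

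Tm7sf2 and Lbr encode enzymes for the same reduction of the sterol ring, and Lbr is also a structural protein of the inner nuclear membrane. With the guide Tm7sf2 rose and Lbr fell, and both fell on the diet. Tm7sf2 had 11.4 to 21.2 CPM (median 14.4) in the gRNA livers, 10.1 to 15.7 CPM (median 12.3) in the HFHF controls, and 73.8, 71.5, 73.9, 67.4 and 69.2 CPM in the chow controls. Its diet change was -2.54 (SE 0.13) and its guide change 0.32 (SE 0.12, edgeR adjusted p = 0.0362), a call lost in 11 of 25 alternative settings. Lbr had 4.14 to 7.28 CPM (median 5.98) in the gRNA livers, 6.31 to 9.40 CPM (median 7.01) in the HFHF controls, and 13.02, 9.23, 9.08, 12.1 and 11.1 CPM in the chow controls. Lbr fell by 0.57 (SE 0.13) on the diet, with overlapping groups, and by a further 0.36 (SE 0.12, edgeR adjusted p = 0.0241) with the guide. The guide call of Lbr was lost in 3 of 25 alternative settings. Per kb of exon, Tm7sf2 made up 73.7 ± 6.19% of the sum of both in the gRNA livers, 64.2 ± 3.43% in the HFHF controls and 87.6 ± 1.89% in the chow controls. The lowest chow share was 85.8% and the highest HFHF control share 69.8%, and the gRNA shares ran from 62.8% to 82.2%. The size of such a share depends on the exon lengths used, which are the same for every library.

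Of the last enzymes, Ebp and Sc5d had smaller fitted falls than Dhcr7. Ebp, the isomerase that shifts a ring double bond, had 96.6 to 137 CPM (median 129) in the gRNA livers, 83.3 to 109 CPM (median 99.1) in the HFHF controls, and 199.5, 191, 189, 168 and 173 CPM in the chow controls. Its mean in the gRNA livers lay between those of the other groups, with a diet change of -0.94 (SE 0.08) and a guide change of 0.38 (SE 0.07, adjusted p = 0.000277, edgeR). Sc5d, which adds the next double bond, averaged 401 ± 43.0 CPM in the gRNA livers, 365 ± 30.9 CPM in the HFHF controls and 659.8 ± 73.3 CPM in the chow controls. Its diet change was -0.85 (SE 0.09) and its guide change 0.13 (SE 0.08, adjusted p = 0.175). Dhcr7, a terminal sterol reductase that yields cholesterol, averaged 22.2 ± 4.43 CPM in the gRNA livers, 25.1 ± 3.94 CPM in the HFHF controls and 83.0 ± 9.15 CPM in the chow controls, with a diet change of -1.73 (SE 0.13) and a guide change of -0.18 (SE 0.11, adjusted p = 0.236).

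Of the 4 regulators, Scap was the 1 that passed with the guide, and its change was the largest of the 28. Scap (ENSMUSG00000032485, chr9:110333288-110384950, plus strand, GRCm38) had 57.7, 69.4, 63.5, 64.1, 73.6, 70.6, 51.6 and 49.4 CPM in the 8 gRNA livers, 40.0, 39.3, 38.7, 40.3, 42.3, 32.3 and 37.9 CPM in the 7 HFHF controls, and 92.6, 84.8, 82.3, 77.5 and 74.3 CPM in the chow controls. The 3 groups did not overlap, and the gRNA livers lay between the others. Scap was 1.62-fold higher in the gRNA livers than in the HFHF controls (0.69 on the log2 scale, SE 0.08, edgeR adjusted p = 1.01e-06) and 2.13-fold lower in the HFHF controls than in the chow controls (-1.09, SE 0.09), leaving it 0.40 lower in the gRNA livers than in the chow controls on the log2 scale (SE 0.09, adjusted p = 0.000956). Srebf2, whose product Scap escorts, had 18.3 to 25.3 CPM (median 21.6) in the gRNA livers, 21.5 to 26.97 CPM (median 23.4) in the HFHF controls, and 42.9, 39.2, 44.1, 48.8 and 43.4 CPM in the chow controls. Srebf2 fell on the diet (-0.89, SE 0.08, adjusted p = 4.43e-09) and did not pass in the guide contrast (-0.11, interval -0.25 to 0.04, adjusted p = 0.241). The Scap window printed above holds no CCAAT box, and the Srebf2 window holds 1.

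Insig1 and Insig2 both encode anchors of Scap, and Insig1 is a classic SREBP2 target. Insig1 had 114 to 354 CPM (median 205) in the gRNA livers, 133 to 229 CPM (median 183) in the HFHF controls, and 508, 462, 632, 542 and 455 CPM in the chow controls. It fell on the diet (-1.51, SE 0.20, adjusted p = 3.43e-06) and did not pass with the guide (0.24, SE 0.18, adjusted p = 0.312). Insig2 had 303 to 503 CPM (median 445) in the gRNA livers, 278 to 521 CPM (median 370.2) in the HFHF controls, and 314, 392, 329.9, 369.6 and 287 CPM in the chow controls. All 3 groups overlapped, and Insig2 passed in none of the 3 comparisons (0.16, SE 0.14, for the guide and 0.16, SE 0.16, for the diet). Per kb of exon, Insig1 made up 35.9 ± 7.56% of the sum of both in the gRNA livers, 35.7 ± 6.94% in the HFHF controls and 63.2 ± 4.13% in the chow controls. The highest share was 48.4% in the gRNA livers and 45.1% in the HFHF controls, and the lowest chow share was 56.9%, so neither HFHF group overlapped with chow. These shares too depend in size on the exon lengths used.

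**Figure D3:**
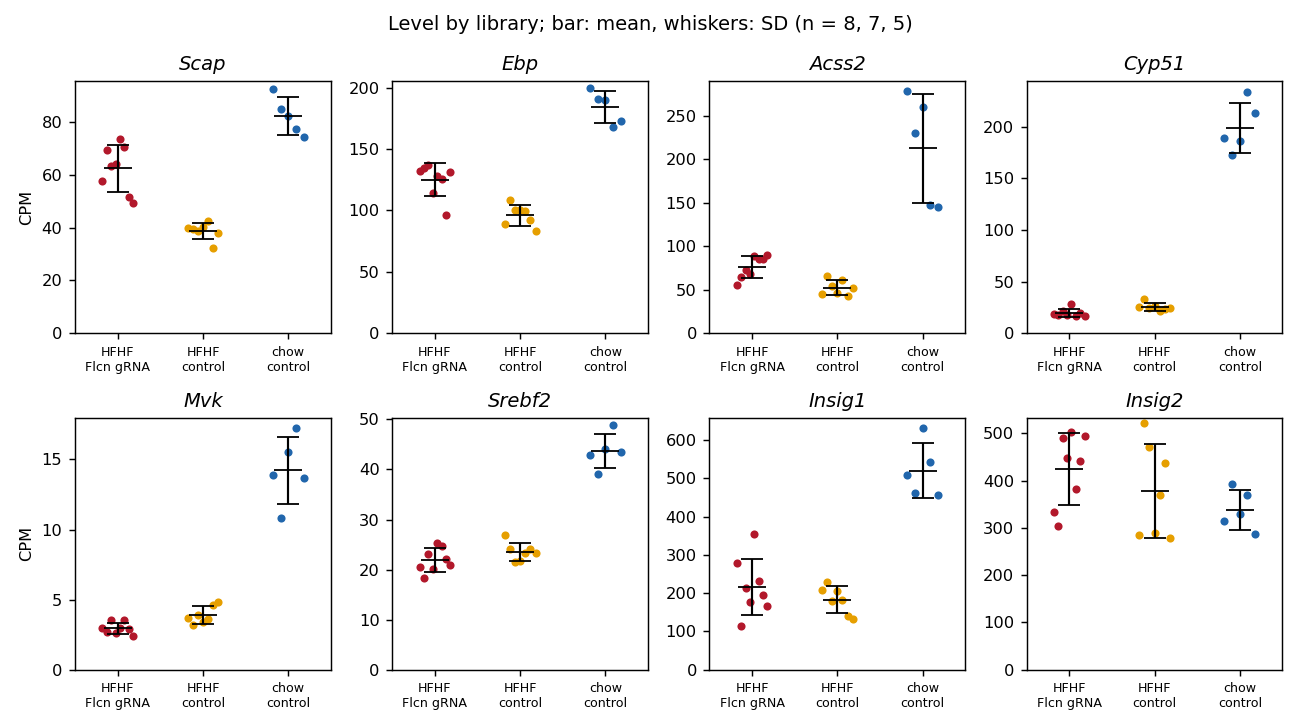
CPM in each library for 8 regulators and enzymes, by group in the order HFHF Flcn gRNA, HFHF control, chow control, with a horizontal bar at the mean and whiskers for the SD (n = 8, 7 and 5). Scap shows 3 separate groups with the gRNA livers in the middle (49.4 to 73.6 CPM), and Insig2 shows 3 overlapping ones.

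Both sterol transport genes fell on the diet, and Tmem97 rose with the guide. Stard4, a cytosolic carrier of cholesterol, averaged 44.9 ± 9.61 CPM in the gRNA livers, 38.5 ± 8.34 CPM in the HFHF controls and 129 ± 8.36 CPM in the chow controls, with a diet change of -1.74 (SE 0.14) and a guide change of 0.22 (SE 0.13, adjusted p = 0.183). Tmem97, a sterol-binding membrane protein also known as the sigma receptor of the second type, had 44.6 to 78.6 CPM (median 54.4) in the gRNA livers, 42.0 to 55.4 CPM (median 44.8) in the HFHF controls, and 64.0, 57.6, 58.6, 59.6 and 55.9 CPM in the chow controls. Its diet change was -0.33 (SE 0.11, edgeR adjusted p = 0.0159), a call lost in 2 of 25 alternative settings. Its guide change was 0.29 (SE 0.10, edgeR adjusted p = 0.0241), a call lost in 7 of 25. The gRNA and chow livers differed by -0.04 (interval -0.27 to 0.19).

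Levels were set against each other between genes after division by exon length, taken as all annotated exons of a gene merged. That length can exceed the transcript made in liver, and the counting method is not given. The order between genes is therefore approximate. In the gRNA livers Insig2 had the highest mean level of the 28 at 122 CPM per kb, followed by Sc5d at 82.4, Insig1 at 70.0 and Ebp at 54.0 CPM per kb. In the HFHF controls the same order held, with Insig2 at 109, Sc5d at 75.0, Insig1 at 59.1 and Ebp at 41.6 CPM per kb. In the chow controls Insig1 led at 168 CPM per kb, followed by Sc5d at 136, Hmgcs1 at 135 and Insig2 at 97.5 CPM per kb. At the low end, Sqle was the lowest of the 28 in both HFHF groups, at 0.189 CPM per kb in the gRNA livers and 0.209 CPM per kb in the HFHF controls, against 13.7 CPM per kb and rank 20 in the chow controls. Idi1 ranked 16 in the gRNA livers and 14 in the HFHF controls, against 5 in the chow controls. These are group means, and no test was made between genes.

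**Figure D4:**
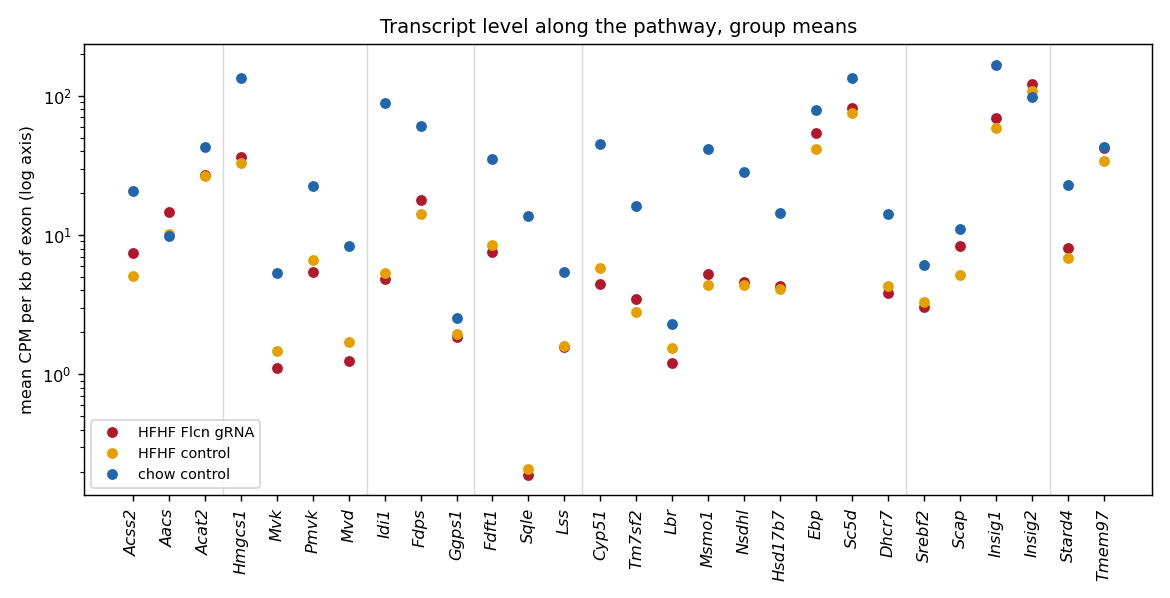
Mean CPM per kb of exon of the 28 genes in pathway order, on a log axis, for HFHF Flcn gRNA, HFHF control and chow control. The chow points lie highest for all but Aacs and Insig2, and Sqle has the widest gap, with 0.189 and 0.209 CPM per kb in the gRNA and HFHF control livers, against 13.7 CPM per kb in the chow livers.

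Within each group some libraries were high or low for many of the genes. In the gRNA group, replicate 5 was the highest of 8 for 13 of the 28 genes, with a median deviation of 0.23 from the group mean on the log2 scale, and replicates 1 and 2 were the lowest for 8 genes each. HFHF control replicate 2 was the highest of its 7 libraries for 17 genes (median deviation 0.31). It had the highest Sqle and Mvd values of its group, 3.17 and 6.35 CPM. Replicate 2 of the chow group was the lowest of 5 for 12 genes, and HFHF control replicate 6 was the lowest of its group for 9. The mitochondrial share of gRNA replicate 5 (13.9%) was the lowest of its group, which reached 26.5%. That of HFHF control replicate 2 (13.6%) was neither the lowest nor the highest of its group. Single genes differed in how widely they spread. Sqle had an SD of 0.77 on the log2 scale in the gRNA livers and 0.98 in the HFHF controls, against 0.30 in the chow controls, and Acat2 had 0.09 in the gRNA livers and 0.08 in the HFHF controls, against 0.11 in the chow controls.

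**Figure D5:**
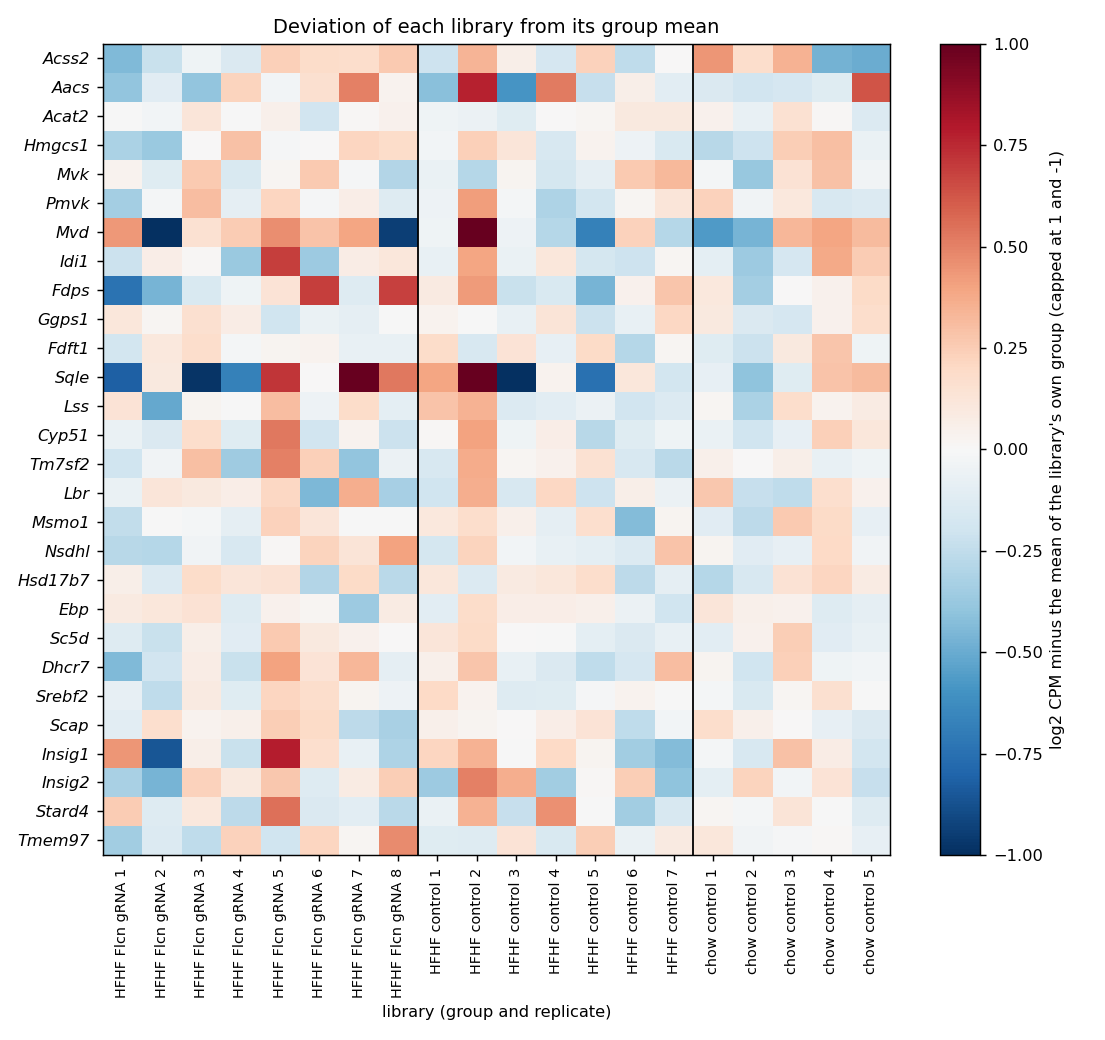
Heat map of the deviation of each gene's log2 CPM from the mean of its own group, with genes in pathway order down the side and libraries of HFHF Flcn gRNA, HFHF control and chow control from left to right; red is above and blue below the mean, and the colours are capped at 1 and -1. The columns of gRNA replicate 5 and HFHF control replicate 2 are mostly red, with medians of 0.23 and 0.31.

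Of 16 genes of SREBP processing and sterol-regulated protein degradation, 3 were higher and 2 lower in the gRNA livers than in the HFHF controls (31.2% called, against 38.6% of all tested genes), and 4 were higher and 4 lower in the HFHF controls than in the chow controls (50% called, against 57%). This list thus gave no larger share of calls than the background in either comparison. The ubiquitin ligase genes Rnf139 and March6 rose with the guide by 0.37 and 0.48 on the log2 scale. March6, whose product marks squalene epoxidase for degradation, averaged 122 ± 11.2 CPM in the gRNA livers, 87.4 ± 10.1 CPM in the HFHF controls and 172 ± 10.6 CPM in the chow controls, and its diet change was -0.97. Rnf145, another ligase gene of the sterol-sensing system, went the opposite way on the diet, by 2.03, with 33.8 ± 5.48 CPM in the gRNA livers, 47.4 ± 7.41 CPM in the HFHF controls and 11.6 ± 1.08 CPM in the chow controls. Of 7 measured genes listed as electron transfer or other partners of the sterol enzymes, 4 were higher and 1 lower with the guide (71.4% called). On the diet 0 of them were higher and 2 lower (28.6% called). Those 2 were Erg28, a scaffold of the demethylation complex, at -0.93, and Cyb5b, a cytochrome, at -0.86. Pgrmc2, a haem-binding membrane protein, rose with the guide by 0.54, and Erg28 by 0.22.

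Of 15 genes of the non-sterol isoprenoid branch, 2 were higher and 1 lower with the guide (20% called, against 38.6% of all tested genes), and 3 were higher and 4 lower on the diet (46.7% called, against 57%). The share called was below the background in both comparisons. The named ones with the guide were Dolk, dolichol kinase, at 0.35 and Pdss2, of ubiquinone synthesis, at 0.25, and on the diet Srd5a3, of dolichol synthesis, at 1.21 and Rabggta, of Rab prenylation, at -0.44. Of 8 acetyl-CoA and ketone body genes, 2 were higher and 2 lower with the guide (50% called), and 4 were higher and 2 lower on the diet (75% called). Mitochondrial thiolase Acat1 rose with the guide by 0.26 and mitochondrial acetyl-CoA synthetase Acss1 fell by 0.94, opposite to its cytosolic counterpart Acss2, though at a mean of 0.527 CPM in the gRNA livers and 1.04 CPM in the HFHF controls. On the diet, the ketone body enzymes Bdh1 and Oxct1 rose by 0.48 and 1.16. Of 12 genes of sterol esterification and intracellular transport, 3 were higher and 2 lower with the guide (41.7% called), where the carriers Osbpl2 and Stard5 rose by 0.30 and 0.41. On the diet 5 were higher and 2 lower (58.3% called), where the transporter Gramd1b rose by 2.87 and its relative Gramd1c changed by -0.59. A lipogenic list held 12 genes grouped under the related factor SREBP1. Of these, 7 were higher and 3 lower on the diet (83.3% called), and the higher ones included the desaturases Scd1 at 2.12 and Fads2 at 0.86. With the guide 2 were higher and 0 lower (16.7% called), Acacb, an acetyl-CoA carboxylase, at 1.402 and Mlxipl at 0.56. Mlxipl encodes the sugar-responsive factor ChREBP, a regulator and not a lipogenic enzyme, and it changed by -0.77 on the diet. The lipogenic list thus had more genes higher than lower on the same diet on which 26 of the 28 sterol genes fell.

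Some of the counts may hold reads of neighbours, because the sources used here do not give whether counting used the strand. Fdft1 shares 774 exon bases, 18.3% of its exons, with Ctsb on the opposite strand, and Ctsb had 227943 counts over all libraries, against 18849 for Fdft1. Ctsb was 0.57 higher on the diet and 0.29 higher with the guide on the log2 scale, while Fdft1 was 2.04 lower on the diet. Tm7sf2 shares 532 exon bases on the same strand with Vps51, which did not pass in either comparison. Acss2 shares 395 bases with Gss on the opposite strand, and Gss changed by 1.17 on the diet and by -0.54 with the guide. Ggps1 shares 257 bases with Arid4b on the opposite strand, which had 9920 counts over all libraries, against 3130 for Ggps1. Arid4b changed by -0.46 on the diet (SE 0.11, edgeR adjusted p = 0.00136), beside -0.38 for Ggps1, and by -0.03 with the guide. Cyp51 shares 166 bases with Akap9 on the opposite strand, which changed by -0.42 on the diet (SE 0.08, adjusted p = 5.96e-05) and by 0.03 with the guide. A stretch of 445 bases of Acat2 matches Tcp1 at 98.7% identity, and Tcp1, with 30695 counts against 24981 for Acat2, changed by -0.19 on the diet (SE 0.06, adjusted p = 0.00663) and by 0.16 with the guide. The part of these neighbours in the falls of Ggps1, Cyp51 and Acat2 was not tested. In Fdps, 1128 bases match Gm43738, which was listed at 3.1 counts in all, and 1062 match Gm3571. Scap shares 985 exon bases, 13.2% of its exons, with 5830462I19Rik on the opposite strand. In Idi1, 684 bases match Gm13502, in Tmem97, 529 match Gm5809, and in Insig1, 189 match Gm37784. Gm3571, 5830462I19Rik, Gm13502, Gm5809 and Gm37784 were not listed among the counted genes. Their levels are not known, and their part in the results was not tested.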

How the data were processed

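RNA of 20 livers was sequenced as single-end reads after mRNA selection, per the labels' protocols, and the build was GRCm38, per the submitters' processing notes. As to the aligner, the counting tool, the annotation and any use of UMIs or strand, none of these is given in the sources used here. The deposited table holds estimated counts per gene, of which 77.8% of the values of at least 1 are whole numbers. They were rounded to whole counts. Its 22 construct features (7 counts) and 1 column that matched no sample label were left out. Symbols were matched from a GRCm38 annotation for 32248 of 32400 genes.

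Library sizes were scaled by TMM, genes were filtered by filterByExpr on the groups, and all 20 libraries were fitted in 1 model of 3 groups with edgeR 4.0.16 (R 4.3.3, robust quasi-likelihood fit, 17 residual degrees of freedom). P-values were adjusted by Benjamini and Hochberg over 13667 genes at a threshold of 0.05, and intervals are 95%. The function was also run on simulated counts in which every gene had the same spread between libraries. That run does not show how the test behaves for genes of wider spread, such as Sqle. CPM are counts scaled to TMM-adjusted library sizes, and levels between genes are per kb of exon, with all annotated exons of a gene merged. DESeq2 1.42.0, other scalings, no filter, fits of 2 groups and each library left out in turn were the alternatives. The labels give each sample as a separate sample of its group without naming the animal, so the p-values cover only sample-to-sample spread, which may be technical.

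The members, the companion lists and the marker lists were chosen with earlier results of these data known. Named genes are all 28 members and, from each companion list other than markers, the 2 with the smallest p in the guide comparison and the 2 in the diet comparison. Promoters were searched in RefSeq windows of GRCm38.p6, and neighbours by shared exon bases and sequence matches of at least 51 bases at 98% identity or more.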

Additional observations from a re-analysis of the deposited data

Results flagged for a closer look

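In each group, the gap between an extreme library and its nearest neighbour was set against the range of the group by Dixon's criterion, in 84 groups of values (28 genes in 3 groups). Chance flags about 1 in 20 such groups, and 5 were flagged. In the gRNA livers, replicate 5 stood apart with the highest Idi1, at 26.6 CPM where the next was 17.8 CPM, and the highest Cyp51, at 27.7 CPM where the next was 21.7 CPM. In the HFHF controls, replicate 2 stood apart with the highest Sqle, at 3.17 CPM where the next was 1.23 CPM, and the highest Mvd, at 6.35 CPM where the next was 3.47 CPM. In the chow controls, replicate 5 stood apart with the highest Aacs, at 57.3 CPM where the next was 34.1 CPM.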

How the results depend on the processing

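No paired analysis was possible because the labels give no replicate numbers that tie libraries of different groups together. With the guide, genes of the 28 called higher than in HFHF controls numbered 7, 3 with upper-quartile scaling, 4 with only the 2 groups fitted and 4 to 7 when a library was left out. Genes called in either direction numbered 6 to 11 and those called lower 2 to 5 when a library was left out. Against chow, 1 gene (Aacs) was higher in the gRNA livers, 0 with no filter, 2 with only the 2 groups fitted (Insig2 was added at 0.34) and 0 to 2 when a library was left out. Of the values that did not pass, 5 changed sign. In the guide contrast Acat2 was -0.04 with upper-quartile scaling and ran from -0.009 to 0.043 over left-out libraries, Lss from -0.065 to 0.051 and Sqle from -0.315 to 0.346. Aacs ran from -0.099 to 0.277 on the diet and Tmem97 from -0.088 to 0.033 between gRNA and chow livers. On the diet, the 26 falls became 25 with upper-quartile scaling and 25 to 26 with a library left out. The cause of these shifts was not tested. At 136 and 145 counts over the gRNA and HFHF control groups, Sqle could not show a moderate change.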
